A study of Drosophila melanogaster with 24 samples.

Results

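The male and female antennae of newly emerged Drosophila melanogaster were compared by expression microarray, using the 8 of 24 samples whose titles name the antenna. These were 4 samples of male and 4 samples of female antennae, dissected 1 to 2 hours after eclosion as the outermost antennal segment with its arista. No treatment or transgene was named for any group. The line is given as the isogenic WI89 in the series text, whereas the sample descriptions carry RIL 58 or RIL 89, and each sex has 2 antennal samples of either number. The other 16 samples, from the first legs and the proboscis of both sexes, served to estimate dye and array effects and to test whether a sex difference was particular to the antenna. The labels do not say that the 4 samples of a group came from separate flies or rearings, and the p-values below therefore cover the spread among the deposited samples alone, part or all of which may be technical.

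Flies smell mainly with the antenna. Its outermost segment is covered with sensilla that hold olfactory receptor neurons and the support cells that secrete odorant-binding proteins into the lymph around them, and the arista carries neurons that sense temperature, while sound is sensed through its movement. Both sexes carry the same kinds of sensilla, but some pheromone-sensing neurons serve different behaviours in males and females. Male first legs carry the sex comb, which antennae lack. In Drosophila, sex is set cell by cell through a cascade of splicing regulators that ends in the transcription factors doublesex and fruitless, and males also raise transcription from their single X chromosome through a complex that holds non-coding RNAs made in males.

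The files give each spot a number and a place on the array grid but no gene, sequence or probe name, so antennal genes could not be looked up, the labelled tissue could not be checked against antennal marker genes, and no pathway could be followed by name. Spots are therefore given by number, and each comparison names a pair in either direction at most. By level, 1113 spots (4.93% of 22575) exceeded both the first legs and the proboscis in the antenna, each at an adjusted p under 0.05. Such a count does not check the tissue label, because it does not show which tissue the samples came from.

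Arrays carried a pair of samples, one per dye, and dye was uneven over the sexes. Male replicates 1, 2 and 3 were labelled with Cy5 and male replicate 4 with Cy3, whereas female replicate 3 was labelled with Cy5 and female replicates 1, 2 and 4 with Cy3. The median signal above background was 16.1 to 21.8 intensity units in the Cy5 males and 104 in the Cy3 male, against 49.2 in the Cy5 female and 120 to 139 in the Cy3 females. The arrays also fell into a set of 8, on which the correlation between the channels, across spots, was 0.628 to 0.737, and a set of 4, on which it was 0.855 to 0.969. All 4 male samples and female replicate 2 lay in the set of 8, and female replicates 1, 3 and 4 in the set of 4. Across the brighter spots, which are not independent replicates, the 28 pairs of antennal samples correlated at 0.510 to 0.961 before and at 0.917 to 0.971 after the fitted dye, array-set and line terms were removed. After removal the 16 pairs of unlike sex (0.917 to 0.971) overlapped with the 12 pairs of like sex (0.925 to 0.961).

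Levels below are normalised log2 signals with those terms removed. Differences are male minus female on the log2 scale from 1 limma model of all 24 samples, in which the 2 channels of an array were treated as correlated. They differ slightly from the difference of the group means, because the model weights samples by the array they share. A spot was called at a Benjamini-Hochberg adjusted p under 0.05 over all 22575 spots.

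Few spots differed between the sexes, and most that did were higher in males. In all, 33 spots were called, 0.146% of those tested, of which 29 were higher (0.128%) and 4 lower (0.0177%) in male antennae. The 29 male-higher spots exceeded female antennae by 0.17 to 1.40, with a median of 0.63, and 5 of them by at least 1, that is, 2-fold. The 4 male-lower spots differed by -0.91 to -0.22. The median difference of all spots was 0.00, and their 5th and 95th percentiles were -0.17 and 0.17. At an unadjusted p under 0.05 there were 1966 spots, 1021 higher and 945 lower in males. At all 33 called spots the male and female ranges were apart, which was so at 5.68% of all spots, and at 3.02% with the males above.

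**Figure D1:**
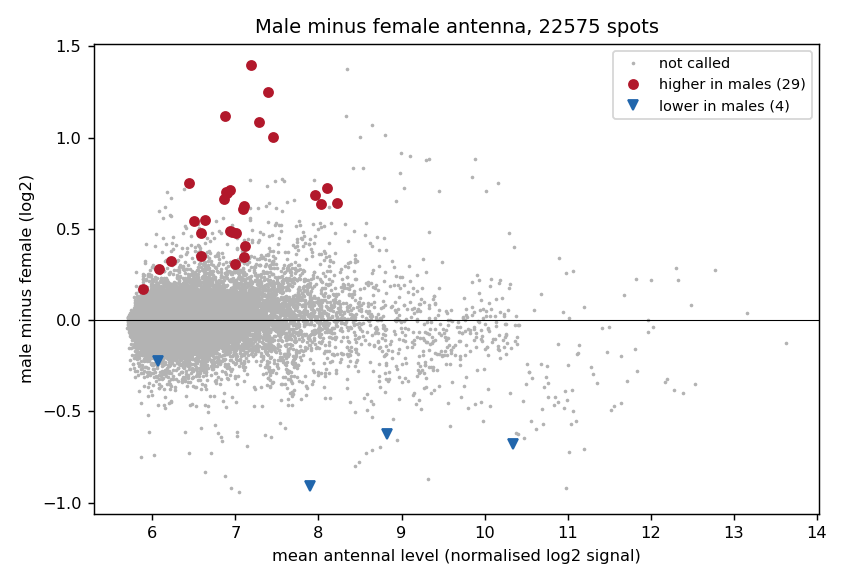
Male minus female difference (log2) against the mean antennal level (normalised log2 signal) for each of the 22575 spots. Red circles mark the 29 spots called higher in males and blue triangles the 4 called lower; 5 grey points above 1 were not called.

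Size alone did not decide a call. A difference of at least 1 in size was estimated at 10 spots, all higher in males, and 5 of these were not called. Of the 33 called spots, 24 lay among the 5644 brightest spots, at mean antennal levels of 6.66 and above, and the other 9 among the dimmer spots. Of those 24, 21 were male-higher and 3 male-lower. No called spot carried a quality mark on any array, and 1090 of all 22575 spots did. With so few marked among all spots, a count of 0 in 33 does not set the called spots apart. The 95% interval of the sex difference lay within 2-fold in either direction at 22420 spots (99.3%), and at 1 spot it lay wholly beyond 2-fold.

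The largest called difference was at spot 11956 (row 56, column 131). Its level was 8.32, 7.67, 7.99 and 7.64 in male replicates 1 to 4, against 6.33, 6.44, 6.47 and 6.66 in female replicates 1 to 4. Every male sample lay above every female sample. The male mean was 7.91 ± 0.32 and the female mean 6.47 ± 0.14 (SD, n = 4 each), and the fitted difference was 1.40 ± 0.12 (SE; 95% interval 1.13 to 1.66), with a limma adjusted p of 4e-05. As scanned, the signal above background was 176, 115, 103 and 216 intensity units in male replicates 1 to 4 and 138, 124, 61.8 and 155 in female replicates 1 to 4. The scanned values overlap between the sexes, whose samples were read in unequal numbers of the dimmer dye, Cy5.

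The called spots can also be read without a dye term in male replicate 4 and female replicate 2, the only samples of opposite sex that share both dye (Cy3) and array set. At spot 11956 their normalised log2 signals, with no term removed, were 7.54 in the male and 6.36 in the female. Over the called spots, male replicate 4 was above female replicate 2 at all 29 male-higher spots, by 0.07 to 1.42 with a median of 0.46, and below it at all 4 male-lower spots, by -0.75 to -0.20. Over all spots this pair had a median difference of 0.01 and was above 0 at 52.5% of spots. These 2 samples are part of the fit that chose the spots and differ in RIL number, so the values describe the called spots and are not a separate test.

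The next largest named difference was at spot 3474 (row 17, column 34). Its level was 7.99, 7.75, 8.42 and 8.03 in male replicates 1 to 4 and 6.76, 6.51, 6.93 and 6.70 in female replicates 1 to 4. The groups were again fully apart, with the lowest male, replicate 2, above the highest female, replicate 3. The means were 8.05 ± 0.28 in males and 6.73 ± 0.17 in females (SD, n = 4 each), and the difference was 1.25 ± 0.13 (SE; 95% interval 0.98 to 1.52; limma adjusted p 7.81e-05).

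Among the male-lower spots the largest fall was at spot 14302 (row 67, column 112). Its level was 7.29, 7.52, 7.31 and 7.65 in male replicates 1 to 4 and 8.22, 8.13, 8.27 and 8.75 in female replicates 1 to 4. Female replicate 4 stood highest, and the other 3 females lay close together above all males. The means were 7.44 ± 0.17 in males and 8.34 ± 0.28 in females (SD, n = 4 each), and the difference was -0.91 ± 0.17 (SE; 95% interval -1.26 to -0.56; limma adjusted p 0.0296).

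Spot 20313 (row 95, column 103) was the brightest called spot. Its level was 10.20, 10.06, 9.96 and 9.86 in male replicates 1 to 4 and 10.59, 10.65, 10.64 and 10.74 in female replicates 1 to 4. The female values spanned less than the male values and lay above all of them. The means were 10.02 ± 0.14 in males and 10.65 ± 0.06 in females (SD, n = 4 each), and the difference was -0.68 ± 0.13 (SE; 95% interval -0.95 to -0.41; limma adjusted p 0.0401).

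The 4 male-lower calls each ended when some single sample was left out. Leaving out a single sample ended the call of spot 20313 in 18 of 24 fits (limma adjusted p up to 0.343, without antenna male replicate 4) and that of spot 14302 in 9 of 24 (up to 0.232, without proboscis female replicate 3), with differences of -0.78 to -0.50 and -1.10 to -0.76. The calls of spots 11956 and 3474 held in all 24, at 1.31 to 1.65 and 1.17 to 1.37. Deviations of same-numbered male and female samples correlated at 0.127 to 0.561, and those of other pairs at -0.376 to 0.231. With the replicate number as a block spots 14302 and 20313 were no longer called (-0.82 and -0.71, limma adjusted p 0.117 and 0.0729). Spot 20313 was not called with 1 dye effect for all arrays either (-0.64, limma adjusted p 0.402).

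**Figure D2:**
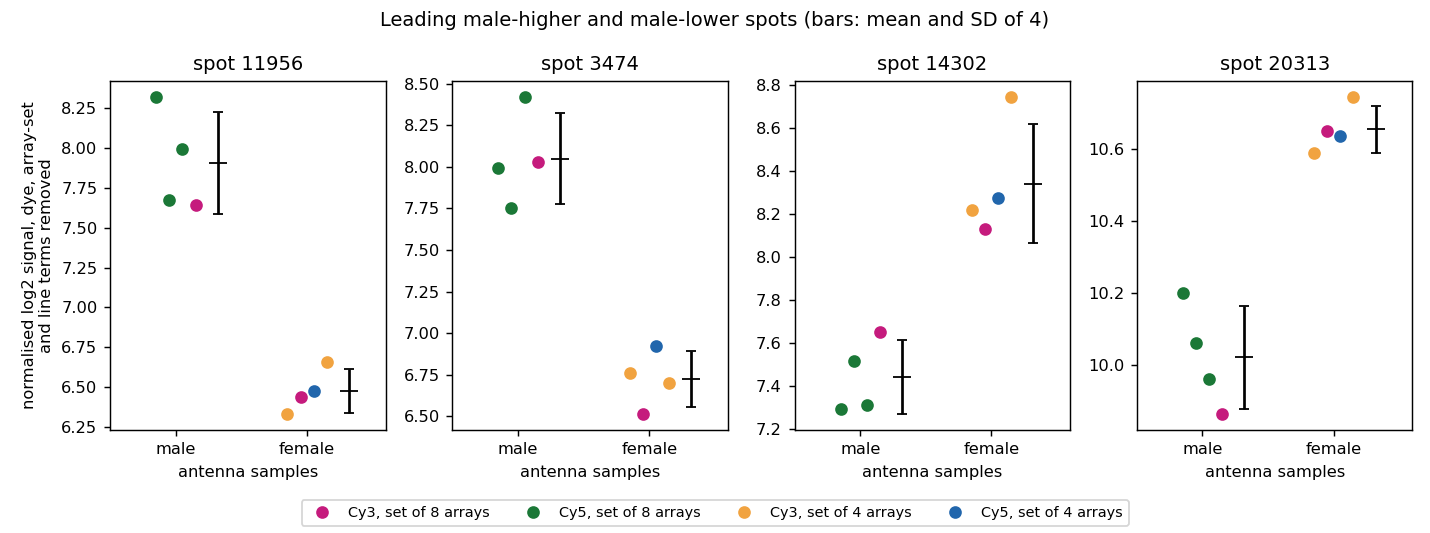
Level (normalised log2 signal with dye, array-set and line terms removed; each panel has its own scale) of the 2 leading male-higher and 2 leading male-lower spots in the 4 male and 4 female antennal samples, coloured by dye and array set. Bars show the mean and SD of 4 samples. The male and female points do not overlap in any panel, from 7.64 to 8.32 in males against 6.33 to 6.66 in females at spot 11956.

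The number of calls depended on how dye and array were handled, while the direction of these 33 spots did not. All 33 spots kept the sign of their difference in the 22 other settings and the 24 fits that left out a sample, wherever they were tested. These fits reuse samples that chose the spots, so a kept sign is not a separate test. Of the 29 male-higher spots, 14 stayed called in each of those 24 fits and 0 in every one of the 22 other settings. The count was 25 with 1 dye effect for all arrays, 19 of them among the 33. It was 6 when samples were scaled to 1 median, 12 with no array block and 0 with each array as a fixed block, where limma gave 1798 spots at an unadjusted p under 0.05. Without female replicate 3, the only female in Cy5, 21 spots were called, 18 higher and 3 lower in males. The 8 antennal samples alone, with sex, dye and array set fitted on 4 residual degrees of freedom, gave 5 spots, all lower in males and 0 of them among the 33, and the set of 8 arrays alone, which holds 1 female antenna, gave 10 higher and 34 lower. More calls were thus lower than higher in males in both of these fits.

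**Figure D3:**
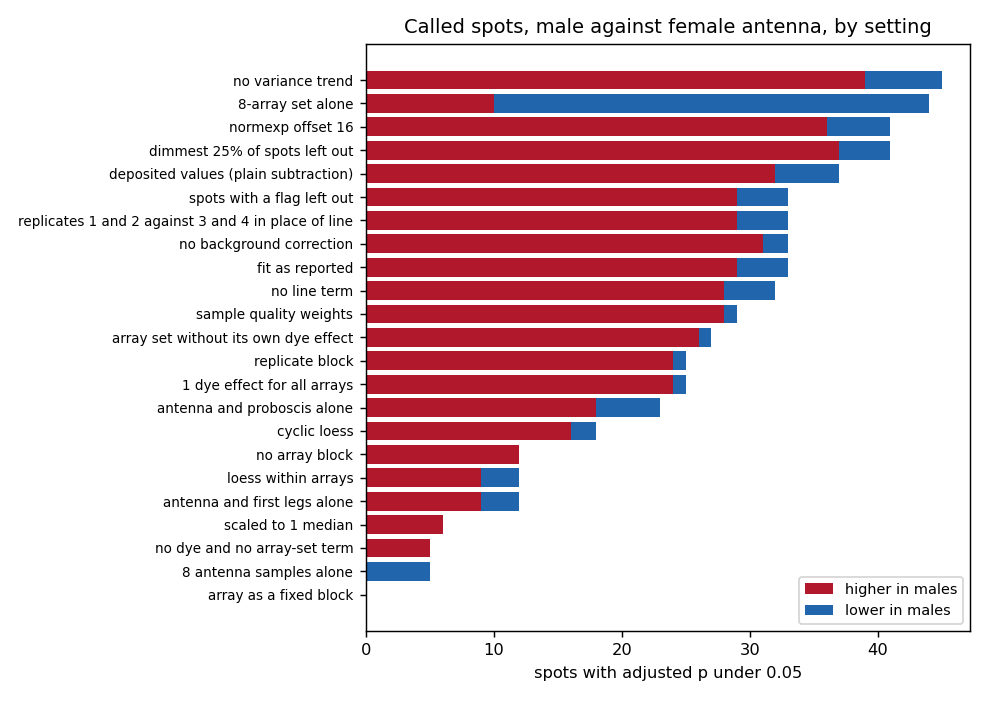
Number of spots with an adjusted p under 0.05 in male against female antennae, split into higher (red) and lower (blue) in males, in the fit as reported and in 22 other settings. The count runs from 0 with the array as a fixed block to 45 without a variance trend, and lower spots outnumber higher ones in the fits of the set of 8 arrays alone and of the 8 antennal samples alone.

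Some transcripts appear to have been printed more than once, which gives a further reading of a few of the called spots. Spots near the start of the array, up to number 5370, had partners near its end, from number 17105, in the same order: 162 pairs with matching profiles over the 16 leg and proboscis samples lay 16945 to 17089 spots apart. No annotation says that such partners are the same probe or gene. For the called spots a partner was sought only between the displacements of the neighbouring pairs and only from the leg and proboscis values, so that the antennal values were not used. This way of matching was settled after the data were seen, when a stricter rule over all 24 samples had matched fewer of the called spots. Of the 14 called spots in these stretches, 7 had a partner that correlated above 0.8 with it. For all 6 male-higher ones the partner was itself called, so that they form 3 pairs and the 33 called spots hold at most 30 separate profiles by this measure. The partner of spot 3474 was spot 20472 (row 96, column 47), with a male minus female difference of 1.09 ± 0.14 (SE; limma adjusted p 8.93e-04). The partner of spot 20313 was spot 3316 (row 16, column 91), at -0.62 ± 0.14 (SE), which was not called (limma adjusted p 0.105). Partners sit on the same arrays with the same RNA, so they repeat the spot and not the sample.

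Most male-higher spots of the antenna also had differences above 0 in the other tissues. Of the 29, 27 had a difference above 0 in the first legs and 26 in the proboscis, against 51.2% and 51.8% of all spots, and 25 were above 0 in both. Their median difference was 0.63 in the antenna, 0.33 in the first legs and 0.23 in the proboscis, where the medians of all spots were 0.00 in each. In the first legs 17 of the 29 were called higher in males, against 0.151% of all spots, and in the proboscis 0 were called, where limma called 0.0133% of all spots. The antenna shares no sample with the other tissues, but all 3 differences were estimated with the same dye and array-set terms, and male antennae share arrays with leg and proboscis samples. Spot 11956 was higher in males by 1.09 ± 0.11 in the first legs and 0.86 ± 0.17 in the proboscis (SE; limma adjusted p 4e-05 and 0.208), where its levels were 7.01 to 7.17 in the 4 males and 6.09 to 6.39 in the 4 females. The proboscis values thus did not overlap either, although the test was not passed.

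Of the 4 male-lower spots, differences ran from -0.19 to 0.35 in the first legs and from -0.44 to 0.08 in the proboscis. Spot 20313 was lower in male antennae but had a difference of 0.35 ± 0.11 in the first legs (SE; limma adjusted p 0.392).

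**Figure D4:**
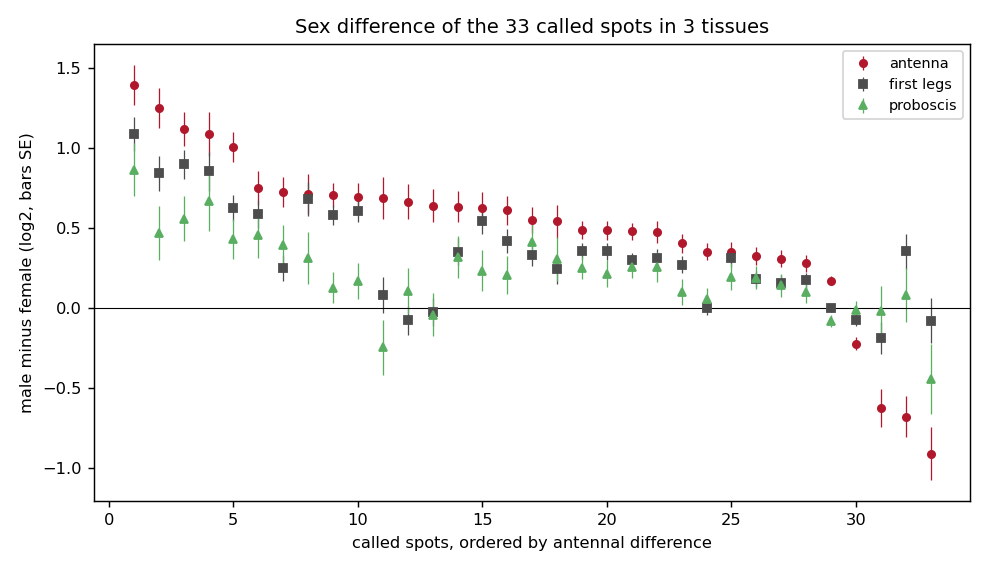
Male minus female difference (log2, bars SE) of the 33 called spots in the antenna (circles), first legs (squares) and proboscis (triangles), ordered by the antennal difference. Most of the 29 male-higher spots lie above 0 in all 3 tissues, and the 4 male-lower spots, at the right, lie below 0 in the antenna.

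Tests of the difference between tissues called few of these spots. The antennal sex difference minus the mean of the other tissues was called at 2 spots (0.00886% of those tested), both lower, with 1189 at an unadjusted p under 0.05, and 0 of the 33 called spots were among them. Against the first legs alone 13 spots were called (0.0576%), 4 higher and 9 lower, and 2 of these were among the 33. They were spot 20313, with a difference of differences of -1.03 ± 0.15 (SE; limma adjusted p 0.0114), and spot 8429 (row 40, column 44), with 0.74 ± 0.13 (SE; limma adjusted p 0.0412), named after its value was seen. Spot 8429 stood at 7.22, 7.36, 6.91 and 7.22 in male antennae and at 6.60, 6.49, 6.59 and 6.54 in female antennae. It differed by 0.67 ± 0.11 in the antenna and by -0.08 ± 0.09 in the first legs (SE). Against the proboscis alone 0 spots were called, with 1053 at an unadjusted p under 0.05 in limma.

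Both spots called against the mean of the other tissues had a large sex difference in the first legs and small ones in the antenna and the proboscis. Spot 1777 (row 9, column 57) had levels of 6.52, 6.49, 6.43 and 6.39 in male antennae and of 6.42, 6.78, 6.47 and 6.52 in female antennae. Its antennal difference was -0.09 ± 0.10 (SE; 95% interval -0.29 to 0.11), while in the first legs the 4 males stood at 7.98 to 8.28 and the 4 females at 6.33 to 6.62. The antennal difference minus the mean of the other tissues was -1.02 ± 0.12 (SE; limma adjusted p 0.00218). Spot 18813 (row 88, column 108), its partner by the order of the array, gave -0.07 ± 0.10 in the antenna and -0.93 ± 0.12 for the same contrast (SE; limma adjusted p 0.00870). In the first legs the differences were 1.67 ± 0.08 and 1.67 ± 0.09, and in the proboscis 0.18 ± 0.13 and 0.05 ± 0.13 (SE). The antennal difference minus that of the proboscis alone was -0.27 ± 0.16 and -0.12 ± 0.17 (SE) and was not called. With 1 dye effect for all arrays neither was called (-0.79 and -0.73, limma adjusted p 0.168 and 0.196), and spot 18813 was not called without antenna female replicate 4 or first-leg female replicate 3 (-0.93 and -0.95, limma adjusted p 0.0926 and 0.0696). The count of 2 was 1 without either of those samples and 8 without antenna male replicate 4.

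Some called spots were also antenna-enriched. Of the 33, 9 were among the 1113 spots that exceeded both other tissues in the antenna, 6 of them male-higher and 3 male-lower, so that 0.809% of the 1113 were called, against 0.146% of all spots. The antennal level averages both sexes, so a higher male level raises the tested excess and a lower one reduces it. At spot 21472, among the 9, female antennae stood at 5.78 to 5.83 and first legs at 5.76 to 5.86. The share over all spots was not matched for brightness, and 24 of the 33 lay among the 5644 brightest spots. When samples were scaled to 1 median 3 of the 33, and with loess within arrays 4 of the 33, exceeded both other tissues. Against the first legs alone 10 of the 33 were higher in the antenna and 0 lower, where 6.49% and 5.84% of all spots were called. Against the proboscis alone 25 were higher and 2 lower, where 8.49% and 7.40% of all spots were called. Spot 20313 was higher in the antenna than in the first legs by 1.22 and than in the proboscis by 1.75.

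Among the 100 spots with the largest antennal excess, at least 1.29 above the nearer tissue, 0 were called between the sexes by limma, with a lowest adjusted p of 0.124. As 0.146% of all spots were called, a count of 0 in 100 spots does not set them apart. Their differences ran from -0.87 to 1.01 with a median of -0.10, and 61 were below 0, against 50.3% of all spots. At 85 of the 100 the 95% interval excluded a 2-fold difference in either direction, on the scale with the offset of 50. The interval's median half-width was 0.44 at these spots and 0.15 over all spots, so the sex difference was estimated less precisely there. These intervals are not adjusted for the number of spots tested, so differences larger than the half-width could also go uncalled. The differences of -0.87 and 1.01 were among those not called. Over all 1113 antenna-enriched spots the median difference was 0.07, but it was -0.03 when samples were scaled to 1 median, -0.06 with cyclic loess and -0.08 with loess within arrays, so its direction depended on the scaling.

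The called spots differed between the sexes in the same direction in samples of either RIL number. In a model with a line term for each sex of the antenna, all 29 male-higher spots were above 0 and all 4 male-lower spots below 0 in RIL 89 and in RIL 58 alike, with medians over the male-higher spots of 0.55 in RIL 89 and 0.59 in RIL 58. Spot 11956 differed by 1.37 ± 0.19 in RIL 89 and by 1.40 ± 0.18 in RIL 58 (SE; limma adjusted p 0.00579 and 0.00838). The lines each hold 2 male and 2 female antennae, all of them part of the fit that chose the spots. Of the 33 called spots 0 had a sex difference that differed between the RIL numbers at an adjusted p under 0.05, where limma called 20 of all 22575 spots and found 1636 at an unadjusted p under 0.05. With so few called among all spots, a count of 0 in 33 does not set the called spots apart.

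At a few spots the female antennae fell into a high and a low pair. Between RIL 89 and RIL 58, 18 spots (0.0797%) were called in females, 15 higher and 3 lower in RIL 89, and 0 in males, where limma gave 1538 at an unadjusted p under 0.05. In females, RIL 89 is replicates 3 and 4 and RIL 58 replicates 1 and 2, so line and replicate number cannot be told apart there. With the replicate number as a block, limma called 0 spots in females, 2 in males and 1 for the difference between the sexes. The female count was 37, 72 and 69 without antenna female replicates 1, 2 and 3, 34 without antenna male replicate 2 or 3, and 11 without first-leg female replicate 3. The male count was 7, 106, 117 and 182 without antenna male replicates 1, 2, 3 and 4, and 1 without first-leg female replicate 2 or proboscis female replicate 1 or 4. With 2 samples per line, neither count was stable.

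The leading spots called higher in RIL 89 females, chosen after their values were seen, were antenna-enriched. Because the levels above had the line term removed, normalised log2 signals with no term removed are given for these spots, and they still hold dye and array-set effects. Spot 20251 (row 95, column 41) stood at 9.69 and 10.36 in female replicates 3 and 4 (RIL 89) and at 7.92 and 7.91 in female replicates 1 and 2 (RIL 58). Its signal was 8.09 and 8.40 in male replicates 1 and 4 (RIL 89) and 8.18 and 8.85 in male replicates 2 and 3 (RIL 58). The lines did not overlap in females and overlapped in males. The fitted difference in females was 2.32 ± 0.24 (SE; limma adjusted p 0.00197), and the sex difference was -2.24 ± 0.22 in RIL 89 and 0.55 ± 0.21 in RIL 58 (SE; limma adjusted p 0.00122 and 0.521). The difference between these sex differences was -2.80 ± 0.31 (SE; limma adjusted p 0.00376). Over all 8 antennal samples the sex difference at this spot was -0.71 ± 0.40 (SE) and was not called (limma adjusted p 0.655). Spot 3255 (row 16, column 30) had nearly the same values in females, at 9.63 and 10.35 in female replicates 3 and 4 and 7.95 and 7.93 in female replicates 1 and 2. Spots 20251 and 3255 lie within the range of displacements of the matched pairs above, so they may not be separate transcripts. Neither had a partner by the rule used there. In the antenna both exceeded the first legs and the proboscis, by 2.23 and 1.98 at spot 20251. The calls in females were lost under the replicate block (2.10 and 2.05, limma adjusted p 0.240 and 0.857) and without antenna female replicate 4 (1.77 and 1.69, limma adjusted p 0.0880 and 0.671). That of spot 3255 was also lost without antenna female replicate 1 (2.20, limma adjusted p 0.0747), without first-leg female replicate 3 (2.16, limma adjusted p 0.0625) and with 1 dye effect for all arrays (2.05, limma adjusted p 0.0605).

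**Figure D5:**
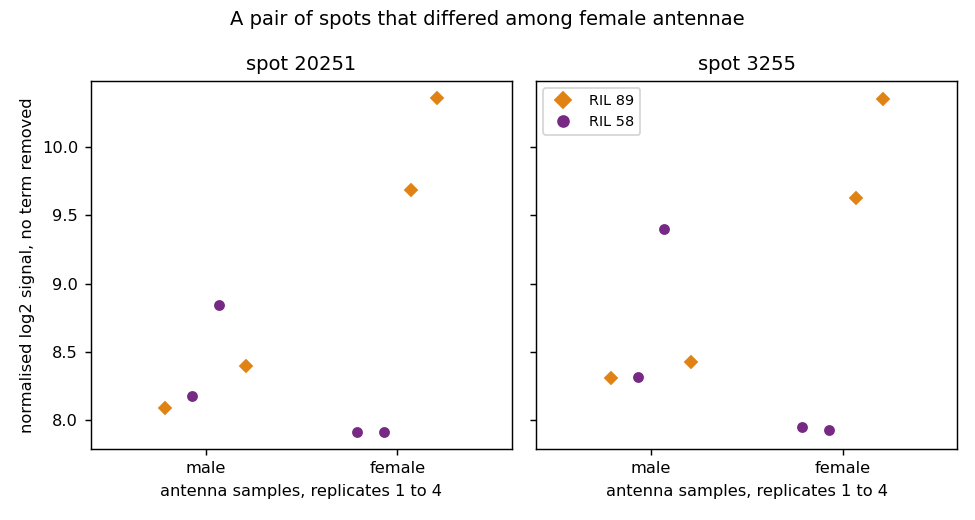
Normalised log2 signal, with no term removed, of spots 20251 and 3255 in the 4 male and 4 female antennal samples, with diamonds for RIL 89 and circles for RIL 58. At spot 20251 female replicates 3 and 4 stand at 9.69 and 10.36, above the 6 other antennal samples at 7.91 to 8.85.

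In the other direction, spot 18892 (row 88, column 187) was lower in RIL 89 than in RIL 58 female antennae, with normalised signals, no term removed, of 6.19 and 6.22 in replicates 3 and 4 against 8.87 and 7.35 in replicates 1 and 2. The fitted difference was -2.17 ± 0.37 (SE; limma adjusted p 0.0428), and it was called in only 8 of the 24 fits that left out a sample (-2.61 to -1.63, limma adjusted p up to 0.365, without antenna female replicate 4), and not under the replicate block (-1.60, limma adjusted p 0.423). The 2 RIL 58 samples differed from each other by more than 1. By the order of the array, spot 18892 had a partner, spot 1856. They correlated at 0.981 over the leg and proboscis samples and at 0.987 over the antennal samples. Such a partner repeats the spot and not the sample. At spot 1910 (row 9, column 190) the difference was -0.61 ± 0.10 (SE; limma adjusted p 0.0314), and its call was lost in 10 of the 24 fits that left out a sample, each fit without a female antennal sample among them (-0.72 to -0.55, limma adjusted p up to 0.187). Neither spot was antenna-enriched. The antenna differed from the first legs and the proboscis by 0.16 and -0.03 at spot 18892 and by 0.07 and 0.05 at spot 1910, none of them called.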

How the data were processed

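The deposited scanner files hold mean signal and mean local background as linear intensity values of 1 dye channel, not normalised, per the file headers, and a quality score (a flag of 0, 2 or 3) per spot, per the file headers, that is not explained. The deposited value table holds natural log values, equal to those of mean signal less mean background (largest difference 8.98e-08). No source used here gives the quantification program. Per the labels, messenger RNA was reverse transcribed and amplified in vitro with T7 polymerase.

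Background was corrected with normexp (offset 50), and log2 values of 24 samples were quantile normalised. Shared arrays were inferred from identical flags, and array sets from the widest gap in channel correlation (0.118, next 0.0842). The limma model held 6 groups, dye, array set, their interaction and RIL number, with a variance trend and the array as a random block (correlation 0.552, 14 residual degrees of freedom). Tests were two-sided. Fits used limma 3.58.1 and statmod 1.5.0 under R 4.3.3; plots were drawn with matplotlib 3.10.9, and tables joined with pandas 2.3.3, in Python 3.11.15. The number of arrays limits the precision.

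Spots were named by the largest difference in each direction among called spots with no overlap of 4 and 4 values. The comparison, lists, settings and the separate dye effect of each array set were chosen with earlier results of these data known. Lists of antennal, sex-determination, fat-body and other marker genes were not used, because the files name no genes. Deviations of same-numbered male and female antennae from their group means correlated at 0.127 to 0.561 over 4 pairs, the highest of which shares an array, and 3 of 4 males correlated best with their own number, although the labels do not say what the numbers mark. Tested on simulated data for the male against female antenna comparison, with 200 of 22575 spots changed, the model recovered 81% of 100 spots changed by 0.5 and 99% of 100 changed by 1, and 7.69% of 195 calls were false. That share of false calls was above the threshold of 0.05. The simulated data held the fitted dye effects and array correlation, which are terms of the model itself. The shares recovered therefore do not measure how many differences were found in the deposited samples.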

Additional observations from a re-analysis of the deposited data

Results flagged for a closer look

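At spots 1777 and 18813 the antennal sex difference fell below the mean of the other tissues by the test of the difference itself, with values of -1.02 and -0.93 on the log2 scale. Their sex difference was 1.67 in the first legs at both, and 0.18 and 0.05 in the proboscis, and the antenna against the proboscis alone was not called. Against the first legs, 13 spots had a sex difference that differed by the same kind of test. Between RIL 89 and RIL 58 antennae, 20 spots had a sex difference that differed, a count that ran from 11 to 151 when single samples were left out. In each of the 20 groups of 4 antennal samples tested at the named spots, 0 samples stood apart by Dixon's test at the 95% level. By chance that test marks about 1 group in 20 unselected groups. These spots were selected by the values of the same samples, so the count of 0 says little about outlying samples.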

How the results depend on the processing

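The count of 33 spots became 5 with the 8 antennal samples alone, 12 with antenna and first legs alone, 0 with the array as a fixed block (1798 at an unadjusted p under 0.05 in limma), 18 with cyclic loess, 12 with loess within arrays or with no array block, 5 with no dye and array-set terms and 6 when scaled to 1 median. It lay between 21 and 44 when single samples were left out, with the fewest without antenna female replicate 3 and the most without antenna male replicate 4. In the other 14 settings it stayed within 1.5 times of 33, among them 25 with the replicate block (24 higher and 1 lower in males, 24 shared with the 33). Under that block spots 14302 and 20313 lost their calls, and spots 11956 and 3474 kept theirs. The set of 8 arrays alone gave 44 calls, 34 of them lower, and only 6 shared with the 33. The count of 2 for the antenna against the other tissues became 0 with 1 dye effect, the fixed array block, either loess or no dye and array-set terms, 1 with no array block or 1 median, and 19 with the set of 8 arrays alone; it lay between 1 and 8 when single samples were left out. The 9 called spots that exceeded both other tissues became 3 with the set of 8 arrays alone, the fixed array block, no dye and array-set terms or 1 median, and 4 with loess within arrays. The line count in females, 18, became 8 with 1 dye effect, 9 with the antenna alone, 0 with antenna and legs alone, 1 with antenna and proboscis alone, 6 with no dye and array-set terms, 11 with an offset of 16, 0 with the replicate block and 65 with sample weights; it lay between 11 and 72 when single samples were left out. The count of 0 in males (1538 at an unadjusted p under 0.05 in limma) became 3 with the deposited values, 2 with the replicate block and 1 without the dim spots, background correction or variance trend; it lay between 0 and 182 when single samples were left out. The count of 20 for sex by line became 0 with the antenna alone, antenna and legs alone or loess within arrays, 1 with antenna and proboscis alone, cyclic loess, the replicate block or 1 median, 11 with no array block and 5 with no dye and array-set terms; it lay between 11 and 151 when single samples were left out. The causes were not tested. The sex differences of spots 11956, 3474, 14302 and 20313, the tissue contrasts of spots 1777 and 18813 and the female line differences of spots 20251, 3255, 18892 and 1910 kept their sign in each setting run for them. Not run were the line counts without a line term, with replicates 1 and 2 against 3 and 4 in its place, with the fixed array block or with the set of 8 arrays, and the contrast of tissues in fits that lack a tissue. In the antennal samples the signal above background was smaller than the background itself for 62.4% to 93.4% of the Cy5 readings of a sample and for at most 0.244% of the Cy3 readings, although at most 51 spots a sample were not above background.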
